A study of Mus musculus with 24 samples.

Results

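The genes that encode voltage-gated sodium, calcium and potassium channels and the other potassium channels were followed in mouse neural stem and progenitor cells (NSPCs) with and without KAT6A, a histone lysine acetyltransferase. A gene was taken as a member when its symbol was Kcn, 1 or more letters and a number, Scn, a number and the letter a or b, or began with Cacna, Cacnb or Cacng. The rule found 133 of the 26411 genes in the count tables, in 20 subunit families, and used no measured value. NSPCs were taken from the embryonic dorsal forebrain (dorsal telencephalon) at E12.5, in litters from intercrosses on a C57BL/6 background. They were expanded in culture over several passages and then grown for 3 days under the conditions compared. Wildtype (Kat6a+/+), heterozygous (Kat6a+/–) and homozygous mutant (Kat6a–/–) NSPCs were each profiled by RNA sequencing under proliferating and under differentiating conditions, with 4 libraries in each of the 6 groups. The mutant allele lacks 5 exons of Kat6a in every cell of the embryo, which brings a premature stop into the catalytic domain. Effects of KAT6A before the cells were isolated and during their expansion are therefore part of each comparison. Proliferating and differentiating NSPCs were extracted with different RNA kits, so that condition and kit cannot be told apart. The libraries came from 5 litters (proliferating) and 7 litters (differentiating). Litter 5063 gave Kat6a–/– replicate 4 of both conditions and proliferating Kat6a+/– replicate 4, but no Kat6a+/+ library. Litter and genotype are therefore partly confounded.

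Voltage-gated channels open when the membrane potential changes, and sodium and calcium channels carry inward currents whereas most potassium channels carry outward currents that return the cell to rest. A pore subunit (Scn1a to Scn11a for sodium, Cacna1 for calcium, the Kv genes for potassium) is usually joined by auxiliary subunits that set its surface level and gating, such as Cacna2d1 or the Kcnab, Kcnip and Kcnmb genes. Inward rectifiers (Kcnj) and tandem-pore K2P channels (Kcnk) set the resting potential, Kcnj10 and Kcnj16 form a channel typical of astrocytes, and progenitor cells of the developing cortex already express several channel genes before they become neurons.

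Library totals ranged from 7826660 to 40838203 counts, so that 1 CPM (counts scaled to library size) stood for 7.83 to 40.8 reads. All CPM below were scaled by TMM (trimmed mean of M values) over the 24 libraries, and a gene is called changed when the false discovery rate (FDR) of the fit over all tested protein-coding genes was under 0.05. Kat6a itself, counted over the whole gene, was at 389 ± 16.3 CPM (SD, n = 4) in proliferating Kat6a+/+, 348 ± 16.5 in Kat6a+/– and 349 ± 24.1 in Kat6a–/– NSPCs, and at 263 ± 24.2, 232 ± 17.2 and 189 ± 42.6 CPM in the differentiating groups. Counts of the whole gene thus do not separate the genotypes as a deleted exon would. The embryo label shared by Kat6a+/+ replicate 1 of both conditions had 211 CPM of Y-linked reads in the differentiating and 0.0490 CPM in the proliferating library, so that 1 of these libraries goes against its label. Without proliferating Kat6a+/+ replicate 1, 19 instead of 27 channel genes were called between proliferating Kat6a–/– and Kat6a+/+ NSPCs (18.8% of all genes). Without differentiating Kat6a+/+ replicate 1, 33 instead of 44 were called in differentiating NSPCs (44.1% of all genes). In each condition, 3 of the 4 Kat6a+/+ and 1 of 4 Kat6a+/– and 1 of 4 Kat6a–/– libraries had Y-linked reads above 100 CPM. The part of this imbalance in the results was not tested. Quality weights were most unequal in differentiating Kat6a–/– libraries, with replicate 3 carrying 69.0% and replicate 2 4.22% of the weight of their group.

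Of the 133 channel genes, 61 passed the filter on low counts in proliferating and 80 in differentiating NSPCs. The 2 sets shared 60 genes, 1 gene (Kcnn4, the intermediate-conductance calcium-activated potassium channel) passed only in proliferating NSPCs, 20 passed only in differentiating NSPCs, and 52 passed in neither. No read was counted in any library for Kcne3, Kcnj1, Kcnk15 and Kcnmb3. Detection was complete for the Kv3 (4 of 4 genes) and Kv4 (3 of 3) families in both conditions, whereas 1 of 8 Kcnh, 5 of 15 Kcnj, 6 of 14 Kcnk and 6 of 14 sodium channel genes passed in proliferating NSPCs. With differentiation, the calcium channels gained most, from 15 to 21 of 26 genes. The genes that passed only in differentiating NSPCs include Cacna1d, Cacna1e, Cacnb4, Kcna4 and Kcnk3.

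Compared per transcript length, the Kv4 pore subunit Kcnd3 had the highest level in proliferating Kat6a+/+ NSPCs, at 52.7 ± 1.70 RPKM, reads per kilobase of transcript scaled like CPM (mean ± SD, n = 4). It was followed by the gamma subunits Cacng7 at 34.1 ± 3.79 RPKM and Cacng4 at 34.0 ± 1.28 RPKM, which do not differ from each other beyond their spread. The Kv3 gene Kcnc1 (25.9 ± 4.41 RPKM) and the Kv1 gene Kcna2 (21.4 ± 1.47 RPKM) came next, and their difference is about the SD of Kcnc1. In differentiating Kat6a+/+ NSPCs, the order was Cacng7 (118 ± 7.97 RPKM), the mechanosensitive K2P channel Kcnk2 (61.9 ± 7.35 RPKM), Kcnj10 (27.9 ± 9.52 RPKM), Kcnd3 (24.5 ± 3.26 RPKM) and the calcium channel beta subunit Cacnb3 (23.3 ± 2.64 RPKM). The levels of the last 3 of these do not differ beyond their spread.

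Between the conditions in Kat6a+/+ NSPCs, 66 of 86 tested channel genes were called, 43 higher and 23 lower in differentiating NSPCs. Of all genes tested, 72.9% were called, 36.7% higher and 36.2% lower. Kcnh5, an ether-a-go-go potassium channel, rose from 0.174, 0.415, 0.694 and 0 CPM in the 4 proliferating libraries to 14.6, 28.6, 19.0 and 13.7 CPM in the 4 differentiating libraries (log2 fold change = 6.17 ± 0.83 (SE), FDR = 9.83e-07). The A-type channel gene Kcna4 was at 0 to 0.250 CPM in proliferating and 3.43 to 7.05 CPM in differentiating libraries (5.85 ± 0.94, FDR = 1.00e-05). Kcnk1 was at 0.298 to 0.888 and 14.6 to 22.9 CPM (5.24 ± 0.69, FDR = 8.62e-07). Kcnn4 was lower in differentiating NSPCs, at 2.71 to 4.25 CPM in proliferating and 0 to 0.163 CPM in differentiating libraries (-5.95 ± 0.86, FDR = 2.55e-06). Among genes with an average log2 CPM above 0, the largest falls were those of Kcnma1, the BK channel pore (-3.50 ± 0.71, FDR = 1.54e-04), Kcnip1 (-3.16 ± 0.59, FDR = 5.94e-05) and the Kv1 gene Kcna3 (-2.99 ± 0.26, FDR = 1.86e-09). All 7 tested K2P genes were called, 6 higher and 1 lower, as were 14 higher and 4 lower of 21 calcium channel genes. The summed level of the tandem-pore genes was 26.2 ± 3.75 CPM in proliferating and 349 ± 33.6 CPM in differentiating Kat6a+/+ libraries (SD, n = 4), most of it Kcnk2. The voltage-gated potassium channels summed to 1075 ± 28.0 and 606 ± 24.9 CPM.

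To ask how loss of KAT6A affected channel genes, Kat6a–/– vs. Kat6a+/+ NSPCs were compared within each condition. In proliferating NSPCs, 27 of 61 tested channel genes (44.3%) were differentially expressed, 17 upregulated and 10 downregulated, where the share over all 12276 genes tested was 30.0% (16.2% higher, 13.8% lower). The median log2 fold change was 0.15 over the channel genes and -0.005 over all genes. In differentiating NSPCs, 44 of 80 (55.0%) were called, 21 upregulated and 23 downregulated, close to the 54.4% of all 13339 genes tested (26.7% higher, 27.7% lower). The median log2 fold change was -0.22 against -0.016. The differentiating count depended on how the unequal Kat6a–/– libraries were weighted. Without quality weights 20 channel genes were called (23.2% of all genes), all of them among the 44. It was 5 without Kat6a–/– replicate 3 (6.99% of all genes), 6 without replicate 1 (9.06%), 62 without replicate 2 (70.8%) and 61 without replicate 4 (69.5%). The genes called by all 5 of the weighted and unweighted limma fits, limma-voom, edgeR and DESeq2 in differentiating NSPCs number 19. Whichever library was left out, 3 differentiating calls held (Kcnmb4 and Cacna1h among them), and each of the others was lost without Kat6a–/– replicate 1 or replicate 3. In proliferating NSPCs, 23 genes were called by limma-voom with and without the litter term, edgeR and DESeq2, and 17 calls held whichever library was left out. With litter as a fixed term, 15 of the 27 proliferating calls held. Cacna2d2, Cacng8, Kcna6, Kcnab3, Kcnj4, Kcnj10, Kcnk1, Kcnt1, Scn2a, Scn3b, Scn7a and Scn8a were not called in that fit.

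The count of libraries gave a view that uses no model. All 4 proliferating Kat6a–/– libraries were above all 4 Kat6a+/+ libraries in 15 channel genes and below them in 8 of the 61, where 13.7% and 17.7% of all genes tested did so. In differentiating NSPCs, 8 were wholly above and 15 wholly below of the 80, against 12.3% and 14.5% of all genes.

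**Figure D1:**
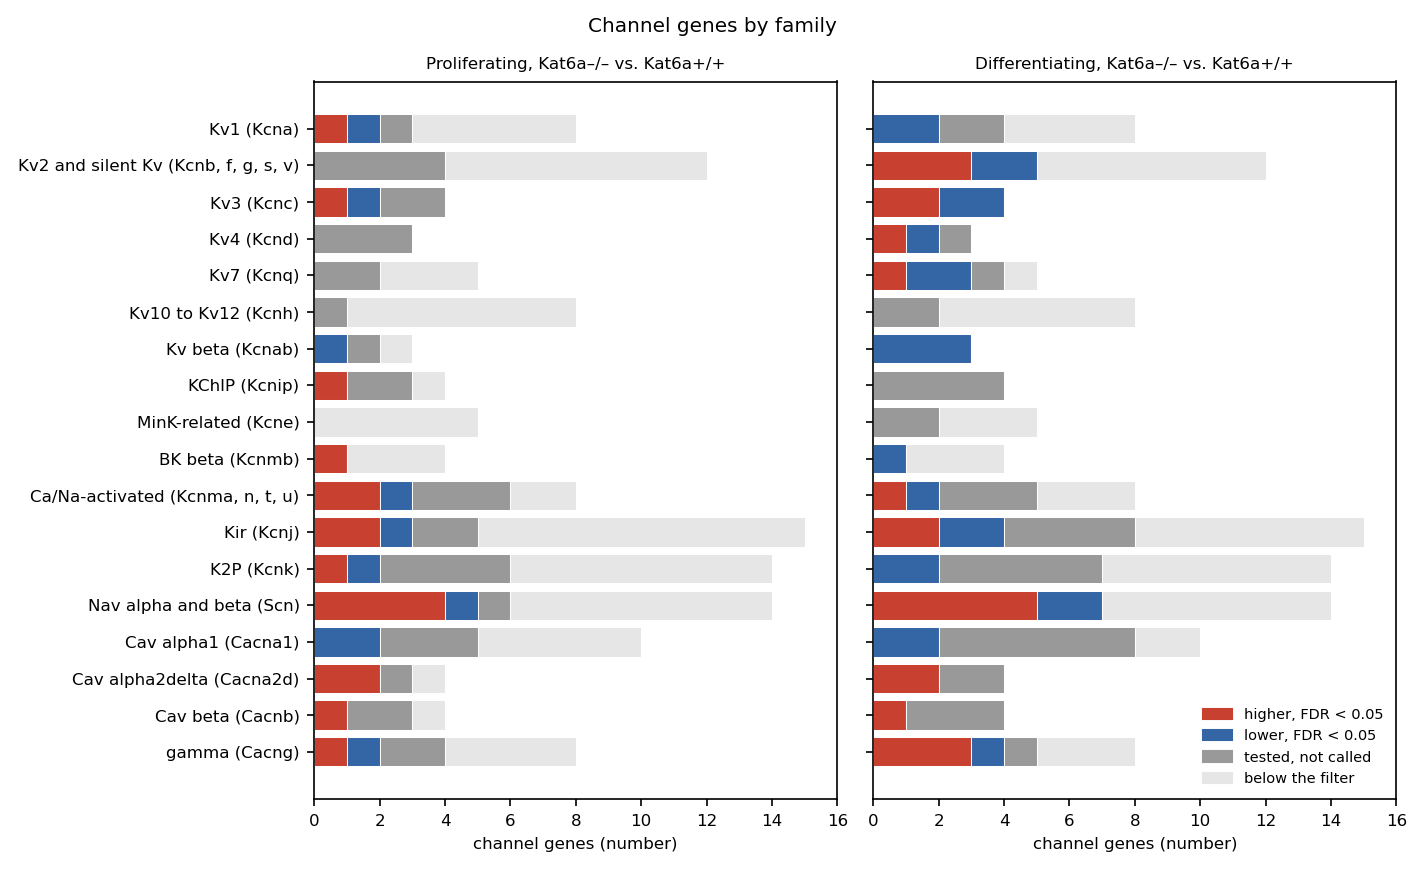
Number of channel genes in each of 18 groups of subunit families that were higher, lower or not called in Kat6a–/– vs. Kat6a+/+ NSPCs, or fell below the filter on low counts, in proliferating (left) and differentiating (right) NSPCs, with 4 libraries per group. The 3 Kv beta genes were all lower in differentiating NSPCs, and most MinK-related and Kcnh genes were below the filter.

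The voltage-gated sodium channels were the class with the largest share of called genes. In proliferating NSPCs, 4 of 6 tested sodium channel genes rose, 1 fell (Scn8a) and 1 was not called (Scn3a), with a median log2 fold change of 1.32. In differentiating NSPCs, 5 of 7 rose and 2 fell (Scn8a and Scn3a), with a median of 1.92. The summed level of the 14 sodium channel genes was 32.8 ± 0.823 CPM in proliferating Kat6a+/+, 36.3 ± 18.9 in Kat6a+/– and 67.6 ± 33.7 CPM in Kat6a–/– libraries (SD, n = 4), and 57.8 ± 8.95, 64.2 ± 2.47 and 140 ± 75.9 CPM in differentiating NSPCs.

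Scn3b (chr9:40179378-40203052, plus strand in mm39), the gene for the beta3 subunit of the immature brain, an auxiliary subunit, was higher in both conditions. It was at 3.58, 4.26, 2.28 and 3.00 in proliferating Kat6a+/+ and 6.46, 7.35, 7.02 and 15.6 CPM in Kat6a–/– libraries (log2 fold change = 1.26 ± 0.37 (SE), FDR = 0.0225). Differentiating Kat6a+/+ libraries had 9.99, 11.5, 10.8 and 9.48 CPM and Kat6a–/– libraries 48.4, 18.1, 45.3 and 14.5 CPM (log2 fold change = 1.92 ± 0.24 (SE), FDR = 4.73e-05). The groups did not overlap in either condition, and the Kat6a–/– libraries of replicates 1 and 3 were well above replicates 2 and 4 in differentiating NSPCs. The proliferating call was lost without Kat6a–/– replicate 4 or Kat6a+/+ replicate 1 (FDR = 0.0726 to 0.104) and with edgeR (FDR = 0.0615), and the differentiating call without Kat6a–/– replicate 3 (FDR = 0.0628).

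Among the sodium channel pores, Scn2a and Scn7a were upregulated and Scn8a was downregulated in both conditions. Scn2a, the Nav1.2 pore of young axons, was at 4.18, 7.04, 5.00 and 4.80 in differentiating Kat6a+/+, 8.51, 5.02, 5.43 and 8.63 in Kat6a+/– and 10.7, 9.80, 11.8 and 10.3 CPM in Kat6a–/– libraries (log2 fold change = 1.23 ± 0.17 (SE), FDR = 9.51e-05). Its proliferating levels were lower, at 0.991 to 1.87 in Kat6a+/+ and 1.89 to 6.48 CPM in Kat6a–/– libraries, 1 of which lay close to the Kat6a+/+ range (1.53 ± 0.41, FDR = 0.0134). These calls were lost without Kat6a+/+ replicate 1 (FDR = 0.0536) in proliferating NSPCs and without Kat6a–/– replicates 1 or 3 (FDR = 0.0661 to 0.117) in differentiating NSPCs. The proliferating call of Scn2a was also lost with litter as a fixed term. Scn7a, the pore of the sodium-sensing channel Nax, stayed near 1 CPM, with 0.696, 0.888, 0.694 and 0.500 in proliferating Kat6a+/+ and 1.56, 2.03, 2.27 and 1.37 CPM in Kat6a–/– libraries (1.38 ± 0.32, FDR = 0.00673). It also rose in differentiating NSPCs (2.16 ± 0.41, FDR = 8.44e-04), a call lost without Kat6a–/– replicates 1 or 3 (FDR = 0.190 to 0.255). The proliferating call of Scn7a was lost with litter as a fixed term.

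Scn8a, which encodes Nav1.6, the main sodium channel of mature axon initial segments, was at 27.0, 25.1, 19.3 and 25.2 in differentiating Kat6a+/+, 21.3, 13.6, 32.9 and 14.3 in Kat6a+/– and 4.15, 13.9, 6.67 and 13.5 CPM in Kat6a–/– libraries (log2 fold change = -1.78 ± 0.25 (SE), FDR = 1.12e-04). In proliferating NSPCs, it was at 18.9, 20.3, 20.1 and 20.0 in Kat6a+/+, 11.9, 11.1, 16.1 and 17.9 in Kat6a+/– and 12.6, 14.9, 17.0 and 13.8 CPM in Kat6a–/– libraries (-0.43 ± 0.14, FDR = 0.0371). The mutant libraries of both genotypes lay below the Kat6a+/+ libraries in proliferating NSPCs. The proliferating call was lost without Kat6a+/– replicate 1 or Kat6a–/– replicates 1 or 4 or Kat6a+/+ replicates 1, 2, 3 or 4 (FDR = 0.0575 to 0.118) and with edgeR (FDR = 0.0636), and the differentiating call without Kat6a–/– replicates 1 or 3 (FDR = 0.0848 to 0.129). Scn3a, the Nav1.3 pore of the embryonic brain, was near 1 CPM in proliferating NSPCs of all genotypes and rose with differentiation in Kat6a+/+ NSPCs to 6.95, 5.59, 8.05 and 4.26 CPM. Differentiating Kat6a–/– libraries had 0.748, 2.83, 0.357 and 3.12 CPM (log2 fold change = -3.32 ± 0.47 (SE), FDR = 1.17e-04), all below the Kat6a+/+ libraries. This was the largest fall among channel genes in that comparison, and its call was lost without Kat6a–/– replicates 1 or 3 (FDR = 0.0755 to 0.187) and with edgeR (log2 fold change = -1.81, FDR = 0.0508).

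**Figure D2:**
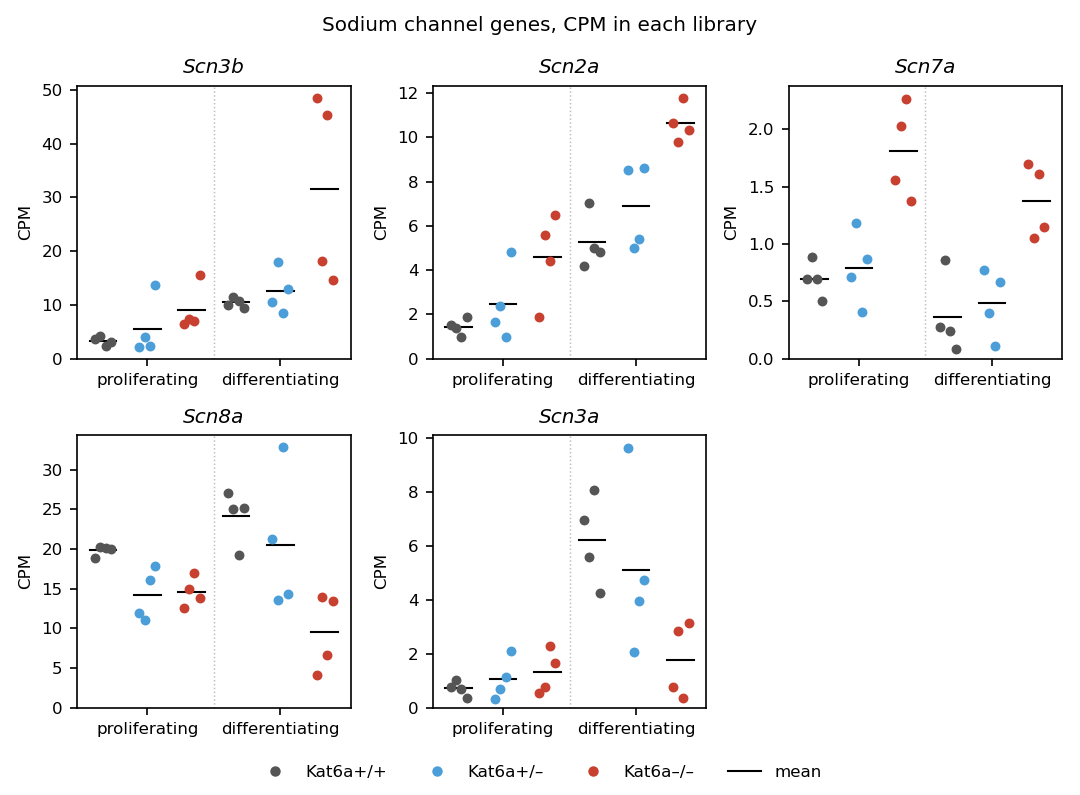
CPM (y axis, linear, from 0) of 5 sodium channel genes in each library, by genotype and condition. Points are libraries, 4 per group, and bars are group means. Scn3b, Scn2a and Scn7a were higher and Scn8a was lower in Kat6a–/– than in Kat6a+/+ NSPCs of both conditions, and Scn3a was lower in differentiating NSPCs.

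The potassium channel genes split in both directions. Of 40 genes for voltage-gated potassium channels, 17 were tested and 4 called in proliferating NSPCs (2 higher, 2 lower), and 22 were tested and 16 called in differentiating NSPCs (7 higher, 9 lower). The pore of the large-conductance calcium-activated (BK) channel, Kcnma1 (chr14:23339499-24064559, minus strand), was at 7.71, 10.8, 5.55 and 4.50 in proliferating Kat6a+/+, 7.84, 8.90, 4.42 and 22.1 in Kat6a+/– and 33.1, 18.9, 25.2 and 46.7 CPM in Kat6a–/– libraries (log2 fold change = 2.01 ± 0.34 (SE), FDR = 0.00128), with no overlap between Kat6a–/– and Kat6a+/+. In differentiating NSPCs, the gene was near 1 CPM, at 0.238 to 1.24 in Kat6a+/+ and 0.893 to 3.62 CPM in Kat6a–/– libraries (1.77 ± 0.44, FDR = 0.00485). This call was lost with edgeR (FDR = 0.0631), without quality weights (FDR = 0.0657) and without Kat6a–/– replicates 1 or 3 (FDR = 0.148 to 0.184).

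Kcnmb4 (chr10:116253766-116309848, minus strand), the neuronal BK beta4 subunit, moved in opposite directions in the 2 conditions. Proliferating Kat6a+/+ libraries had 23.7, 25.3, 34.0 and 27.0 CPM, Kat6a+/– libraries 29.7, 37.2, 35.7 and 37.5 CPM and Kat6a–/– libraries 69.6, 49.3, 52.4 and 62.7 CPM. In differentiating NSPCs the values were 25.2, 20.5, 24.5 and 21.0 in Kat6a+/+, 26.0, 17.0, 18.5 and 20.2 in Kat6a+/– and 7.07, 10.4, 7.98 and 13.1 CPM in Kat6a–/– libraries. Kat6a–/– libraries therefore lay wholly above Kat6a+/+ in proliferating (log2 fold change = 1.10 ± 0.12 (SE), FDR = 6.78e-05) and wholly below them in differentiating NSPCs (log2 fold change = -1.51 ± 0.14 (SE), FDR = 6.86e-06). The difference between the 2 effects, tested as an interaction over 24 libraries, was -2.41 ± 0.24 (SE, FDR = 6.91e-06). All 3 calls held in each alternative fit.

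Kcnip3 (chr2:127298418-127364014, minus strand) encodes KChIP3, a calcium-binding partner of Kv4 channels that is also known as the transcriptional repressor DREAM. It was at 47.3, 49.2, 81.4 and 91.9 in proliferating Kat6a+/+, 71.1, 67.5, 98.4 and 87.1 in Kat6a+/– and 188, 161, 169 and 125 CPM in Kat6a–/– libraries (log2 fold change = 1.31 ± 0.19 (SE), FDR = 5.90e-04). In differentiating NSPCs the groups overlapped, with 15.3 to 28.1 in Kat6a+/+ and 16.5 to 26.9 CPM in Kat6a–/– libraries (-0.31 ± 0.18, FDR = 0.173). The difference between the effects was -1.27 ± 0.32, FDR = 0.0112, called in each alternative fit. The other KChIP genes were not called in either condition. The Kv4 pores that KChIPs bind were not called in proliferating NSPCs. In differentiating NSPCs Kcnd1 rose from 2.14 to 2.42 CPM in Kat6a+/+ to 3.70 to 7.54 CPM in Kat6a–/– libraries (1.16 ± 0.20, FDR = 3.70e-04, lost without Kat6a–/– replicates 1 or 3 (FDR = 0.0944 to 0.100)). Kcnd2 fell there (-0.92 ± 0.20, FDR = 0.00216, but FDR = 0.220 without quality weights) and Kcnd3 was not called (-0.24 ± 0.10, FDR = 0.0621).

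Among the Kv1 pores, 1 of 3 tested genes rose and 1 fell in proliferating NSPCs, and 2 of 4 fell in differentiating NSPCs. Kcna3, a Kv1.3 pore also known from proliferating cells and lymphocytes, fell from 12.6, 15.1, 11.2 and 12.7 CPM in proliferating Kat6a+/+ to 7.69, 8.23, 8.42 and 3.73 CPM in Kat6a–/– libraries (log2 fold change = -0.93 ± 0.22 (SE), FDR = 0.00636), with Kat6a+/– libraries at 9.82, 11.96, 14.3 and 11.7 CPM. Kat6a+/– overlapped with Kat6a+/+ and not with Kat6a–/–. In differentiating NSPCs its level was near 2 CPM and the fall (-0.80 ± 0.23, FDR = 0.0113) was not called without quality weights (FDR = 0.372) or without Kat6a–/– replicates 1 or 3 or Kat6a+/+ replicate 1 (FDR = 0.0828 to 0.863). Kcna6 rose in proliferating NSPCs (1.11 ± 0.28, FDR = 0.0104, lost without Kat6a+/+ replicate 1 (FDR = 0.0522)). Differentiating libraries overlapped, at 44.3 to 70.7 in Kat6a+/+ and 29.2 to 168 CPM in Kat6a–/– NSPCs (-0.04 ± 0.33, FDR = 0.926). The difference between the effects was not called (-0.62 ± 0.95, FDR = 0.710). All 3 Kv beta genes were lower in differentiating Kat6a–/– NSPCs. Kcnab3 was at 2.34, 3.60, 3.62 and 2.65 in differentiating Kat6a+/+ and 0.340, 1.05, 0.595 and 1.28 CPM in Kat6a–/– libraries (log2 fold change = -2.06 ± 0.27 (SE), FDR = 7.00e-05, lost without Kat6a–/– replicate 3 (FDR = 0.0659)). It also fell in proliferating NSPCs, from 6.75 to 10.0 CPM in Kat6a+/+ to 3.04 to 4.75 CPM in Kat6a–/– libraries (-0.99 ± 0.24, FDR = 0.00827). Differentiating libraries had Kcnab2 at 18.2, 16.6, 16.9 and 16.8 in Kat6a+/+ and 11.8, 12.8, 9.70 and 13.3 CPM in Kat6a–/– NSPCs (-0.72 ± 0.12, FDR = 3.12e-04, lost without Kat6a–/– replicates 1 or 3 (FDR = 0.100 to 0.246)). Kcnab1 had overlapping groups (-0.99 ± 0.33, FDR = 0.0221) and was not called without quality weights (FDR = 0.407).

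The 4 Kv3 genes, pores of fast-repolarizing channels, did not move together. Kcnc4 rose from 2.11, 1.24, 2.28 and 2.25 CPM in proliferating Kat6a+/+ to 7.13, 7.98, 11.8 and 5.30 CPM in Kat6a–/– libraries (log2 fold change = 2.04 ± 0.27 (SE), FDR = 2.13e-04), while Kat6a+/– libraries, at 2.30, 1.78, 3.94 and 1.73 CPM, overlapped with Kat6a+/+. Its rise in differentiating NSPCs (1.76 ± 0.34, FDR = 8.47e-04) was not called without quality weights (FDR = 0.0518) or without Kat6a–/– replicates 1 or 3 (FDR = 0.286 to 0.393). Kcnc1 had a high level in all libraries and was at 130, 128, 138 and 139 in differentiating Kat6a+/+ and 59.7, 115, 63.0 and 73.9 CPM in Kat6a–/– libraries (log2 fold change = -1.04 ± 0.09 (SE), FDR = 4.99e-06, lost without Kat6a–/– replicates 1 or 3 (FDR = 0.0588 to 0.112)). It was not called in proliferating NSPCs (-0.31 ± 0.16, FDR = 0.153). Kcnc2, near 1 CPM, was lower in proliferating NSPCs (-2.14 ± 0.43, FDR = 0.00306) in each alternative fit.

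The Kv7 genes, pores of the M current that damps repeated firing, and the silent modifier subunits, which form channels only together with other Kv pores, had no call in proliferating NSPCs, where 2 and 3 genes were tested, and had 3 of 4 and 4 of 4 genes called in differentiating NSPCs. Kcnq3 was at 7.49, 3.38, 6.24 and 4.34 in Kat6a+/+ and 2.24, 2.83, 2.50 and 2.04 CPM in Kat6a–/– libraries (log2 fold change = -1.29 ± 0.21 (SE), FDR = 3.36e-04, lost without Kat6a–/– replicates 1 or 3 (FDR = 0.119 to 0.156)). The proliferating value was 0.15 ± 0.28, FDR = 0.711, and the difference between the effects was not called (-1.18 ± 0.49, FDR = 0.111). The silent subunit gene Kcnf1 (chr12:17222101-17226889, minus strand) was at 3.15, 4.94, 2.81 and 1.28 in differentiating Kat6a+/+, 8.98, 8.18, 1.86 and 18.8 in Kat6a+/– and 33.2, 13.7, 25.5 and 8.86 CPM in Kat6a–/– libraries (log2 fold change = 3.01 ± 0.46 (SE), FDR = 1.80e-04, lost without Kat6a–/– replicates 1 or 3 (FDR = 0.0869 to 0.131)). Kat6a+/– libraries spanned the range from Kat6a+/+ into Kat6a–/–. In proliferating NSPCs all groups lay between 4.81 and 8.12 CPM (-0.12 ± 0.19, FDR = 0.640). Kcnv1 (-1.83 ± 0.40, FDR = 0.00197) and Kcng1 (-0.95 ± 0.22, FDR = 0.00267) were lower and Kcns1 was higher (1.06 ± 0.31, FDR = 0.0123) in differentiating NSPCs, with Kcnv1 not called without quality weights (FDR = 0.124).

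Calls among the inward rectifiers numbered 3 of 5 tested genes in proliferating and 4 of 8 in differentiating NSPCs. The tandem-pore genes had 2 of 6 and 2 of 7. Kcnj10 and Kcnj16, the pair found in astrocytes, were both higher in proliferating Kat6a–/– NSPCs. Kcnj16 was at 48.8, 62.1, 78.2 and 61.6 in Kat6a+/+, 55.2, 73.2, 71.7 and 63.9 in Kat6a+/– and 115, 102, 106 and 76.8 CPM in Kat6a–/– libraries (log2 fold change = 0.68 ± 0.12 (SE), FDR = 0.00156), overlapping only by 1 library. Kcnj10 was at 23.97, 17.8, 31.2 and 21.1 in Kat6a+/+ and 46.7, 29.4, 35.3 and 31.3 CPM in Kat6a–/– libraries (log2 fold change = 0.65 ± 0.20 (SE), FDR = 0.0268). Its call was lost without Kat6a–/– replicates 1, 3 or 4 or Kat6a+/+ replicates 1, 2 or 4 (FDR = 0.0524 to 0.0791) and with edgeR (FDR = 0.0594). In differentiating NSPCs neither was called, and Kat6a–/– libraries spread over 29.8 to 194 CPM for Kcnj10 and 14.6 to 119 CPM for Kcnj16. Kcnj4 was lower in proliferating, from 2.38 to 3.43 CPM in Kat6a+/+ to 1.14 to 2.05 CPM in Kat6a–/– libraries (-0.86 ± 0.24, FDR = 0.0164). It was higher in differentiating NSPCs (1.39 ± 0.31, FDR = 0.00224, but FDR = 0.187 without quality weights and lost without Kat6a–/– replicates 1 or 3 (FDR = 0.369 to 0.501)), at 0.706, 0.806, 0.714 and 0.579 in Kat6a+/+ and 3.06, 0.734, 2.26 and 0.638 CPM in Kat6a–/– libraries. Among the tandem-pore genes, Kcnk2 was not called in either condition (0.53 ± 0.30, FDR = 0.199 and -0.20 ± 0.11, FDR = 0.133). Kcnk5 fell in differentiating NSPCs from 2.63 to 4.83 CPM in Kat6a+/+ to 0.952 to 2.44 CPM in Kat6a–/– libraries (-1.06 ± 0.27, FDR = 0.00524, lost without Kat6a–/– replicate 1 (FDR = 0.0926)). Kcnn4 rose in proliferating NSPCs from 2.71, 3.85, 3.27 and 4.25 CPM in Kat6a+/+ to 9.36, 6.59, 10.9 and 7.46 CPM in Kat6a–/– libraries (log2 fold change = 1.62 ± 0.36 (SE), FDR = 0.00559), called in each alternative fit.

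Other potassium channel genes of the panel gave few calls. Kcna2, a Kv1 pore of axons, had a log2 fold change of -0.26 ± 0.17, FDR = 0.253 in proliferating and -0.25 ± 0.28, FDR = 0.483 in differentiating NSPCs. The small-conductance gene Kcnn2 (0.02 ± 0.38, FDR = 0.967 and -0.15 ± 0.23, FDR = 0.619), the ERG gene Kcnh2 (0.29 ± 0.12, FDR = 0.0792 and 0.20 ± 0.18, FDR = 0.373) and the KChIP gene Kcnip1 (-1.20 ± 0.48, FDR = 0.0744 and 0.92 ± 0.40, FDR = 0.0698) were not called in either condition.

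**Figure D3:**
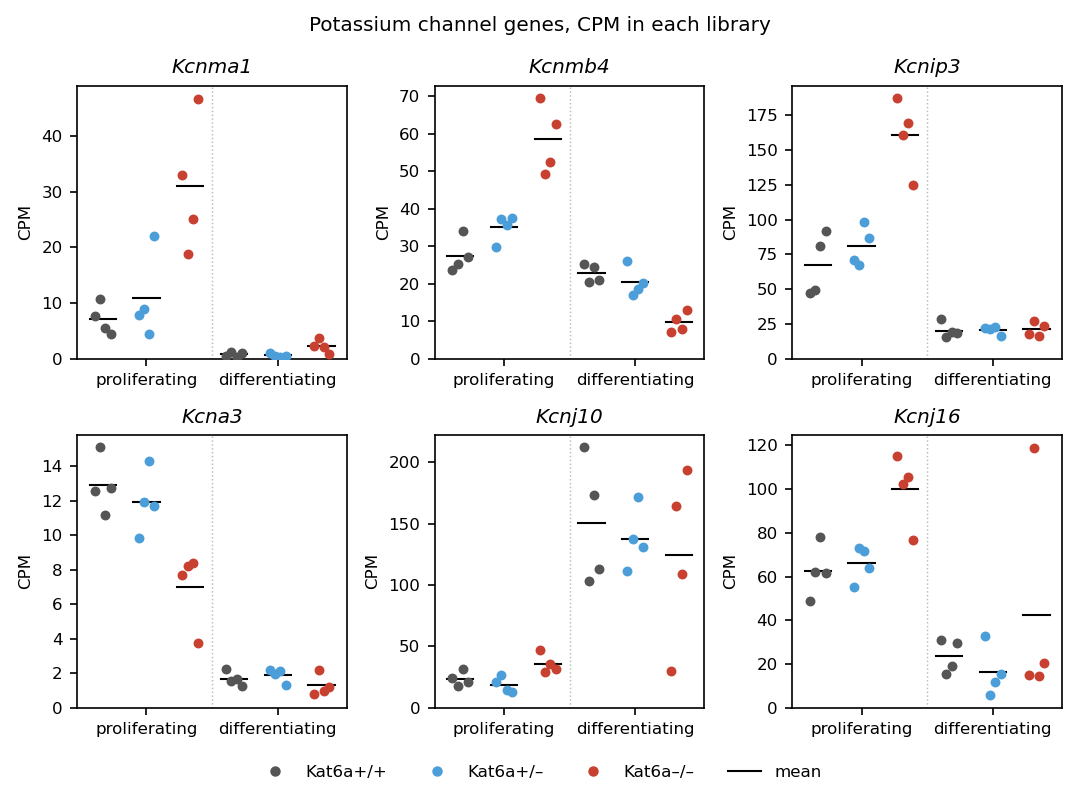
CPM (y axis, linear, from 0) of 6 potassium channel genes in each library, by genotype and condition. Points are libraries, 4 per group, and bars are group means. Kcnmb4 was higher in proliferating and lower in differentiating Kat6a–/– than Kat6a+/+ NSPCs, whereas Kcnma1, Kcnip3, Kcnj10 and Kcnj16 were higher and Kcna3 lower in proliferating NSPCs.

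Among voltage-gated calcium channels, 7 of 15 tested genes were called in proliferating (4 higher, 3 lower) and 9 of 21 in differentiating NSPCs (6 higher, 3 lower). Both called pores fell in both conditions, and the called auxiliary subunits rose except Cacng4, which fell in both. Cacna1c (chr6:118564201-119173851, minus strand), the L-type Cav1.2 pore, was at 65.0, 61.0, 43.5 and 49.2 in proliferating Kat6a+/+, 45.2, 38.0, 49.95 and 33.4 in Kat6a+/– and 25.3, 31.8, 31.0 and 21.7 CPM in Kat6a–/– libraries (log2 fold change = -0.91 ± 0.16 (SE), FDR = 0.00128). Differentiating libraries had 112, 222, 133 and 113 in Kat6a+/+ and 66.5, 52.5, 71.6 and 96.6 CPM in Kat6a–/– NSPCs (log2 fold change = -0.82 ± 0.19 (SE), FDR = 0.00314, lost without Kat6a–/– replicates 1 or 3 (FDR = 0.113 to 0.142)). Cacna1h (chr17:25593259-25652764, minus strand), the T-type Cav3.2 pore, was at 134, 145, 89.0 and 95.4 in proliferating Kat6a+/+ and 53.1, 58.1, 48.3 and 86.9 CPM in Kat6a–/– libraries (log2 fold change = -0.85 ± 0.16 (SE), FDR = 0.00236). Its differentiating libraries had 86.0, 98.0, 94.8 and 83.7 in Kat6a+/+ and 63.3, 33.4, 54.6 and 41.0 CPM in Kat6a–/– NSPCs (log2 fold change = -0.75 ± 0.11 (SE), FDR = 1.31e-04). Kat6a–/– and Kat6a+/+ libraries did not overlap in any of these 4 comparisons, and the Cacna1h calls held whichever library was left out. The T-type pore Cacna1g was not called (-0.49 ± 0.39, FDR = 0.359 and 0.13 ± 0.32, FDR = 0.767). An exon of Cacna1h overlaps Tpsg1 on the other strand, and whether counting used strand is not given in the sources used here. Kcnab2, Kcnj13 and Cacna2d4 have such overlaps too.

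Of the alpha2delta subunits, which raise the number of calcium channels at the membrane, 2 of 3 tested genes rose in proliferating and 2 of 4 in differentiating NSPCs. Cacna2d1 was at 59.4, 63.7, 49.95 and 49.99 in proliferating Kat6a+/+, 71.3, 72.9, 68.0 and 66.0 in Kat6a+/– and 78.1, 76.8, 84.0 and 86.9 CPM in Kat6a–/– libraries (log2 fold change = 0.60 ± 0.08 (SE), FDR = 1.59e-04), an order with no overlap between neighbouring genotypes. In differentiating NSPCs it overlapped (0.83 ± 0.17, FDR = 0.00153) and was not called without quality weights (FDR = 0.222). Cacna2d2 rose in proliferating NSPCs, from 1.68 to 3.26 CPM in Kat6a+/+ to 3.93 to 7.13 CPM in Kat6a–/– libraries (1.07 ± 0.25, FDR = 0.00649). In differentiating NSPCs it was not called (-0.20 ± 0.13, FDR = 0.203), with an interaction of -1.19 ± 0.36, FDR = 0.0284. The beta subunit gene Cacnb2 rose in proliferating NSPCs (0.75 ± 0.16, FDR = 0.00352). Cacnb4, below the filter in proliferating NSPCs, was at 6.03, 15.6, 7.29 and 7.70 in differentiating Kat6a+/+, 15.4, 11.7, 11.1 and 14.5 in Kat6a+/– and 16.9, 28.0, 16.4 and 16.7 CPM in Kat6a–/– libraries (log2 fold change = 1.20 ± 0.21 (SE), FDR = 4.15e-04, lost without Kat6a–/– replicates 1 or 3 (FDR = 0.0519 to 0.0631)).

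The gamma family, whose members Cacng2, Cacng4, Cacng7 and Cacng8 are better known as partners of AMPA-type glutamate receptors, had 1 gene higher and 1 lower of 4 tested in proliferating NSPCs and 3 higher and 1 lower of 5 in differentiating NSPCs. Cacng4 was at 129, 122, 127 and 119 in proliferating Kat6a+/+ and 88.2, 94.2, 105 and 49.5 CPM in Kat6a–/– libraries (-0.53 ± 0.16, FDR = 0.0221, lost without Kat6a+/+ replicate 1 (FDR = 0.0556)). Its differentiating Kat6a–/– libraries, at 10.8, 79.4, 24.8 and 66.8 CPM, lay on both sides of the Kat6a+/+ range of 31.7 to 77.6 CPM. That call (-1.23 ± 0.34, FDR = 0.00931) was lost without quality weights (FDR = 0.513). Cacng8 was higher in both conditions (0.73 ± 0.23, FDR = 0.0279 and 0.77 ± 0.21, FDR = 0.00835), with calls lost without Kat6a–/– replicates 1, 3 or 4 or Kat6a+/+ replicates 1, 2 or 4 (FDR = 0.0525 to 0.0943) in proliferating NSPCs and without Kat6a–/– replicates 1 or 3 (FDR = 0.794 to 0.933) in differentiating NSPCs. Cacng2 was below the filter in both conditions, at 0 counts in all proliferating libraries and at most 0.199 CPM in differentiating libraries. The most abundant member, Cacng7, changed by 0.18 (FDR = 0.0242) in differentiating NSPCs, which was not called with library totals as the scale (log2 fold change = 0.03, FDR = 0.690).

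**Figure D4:**
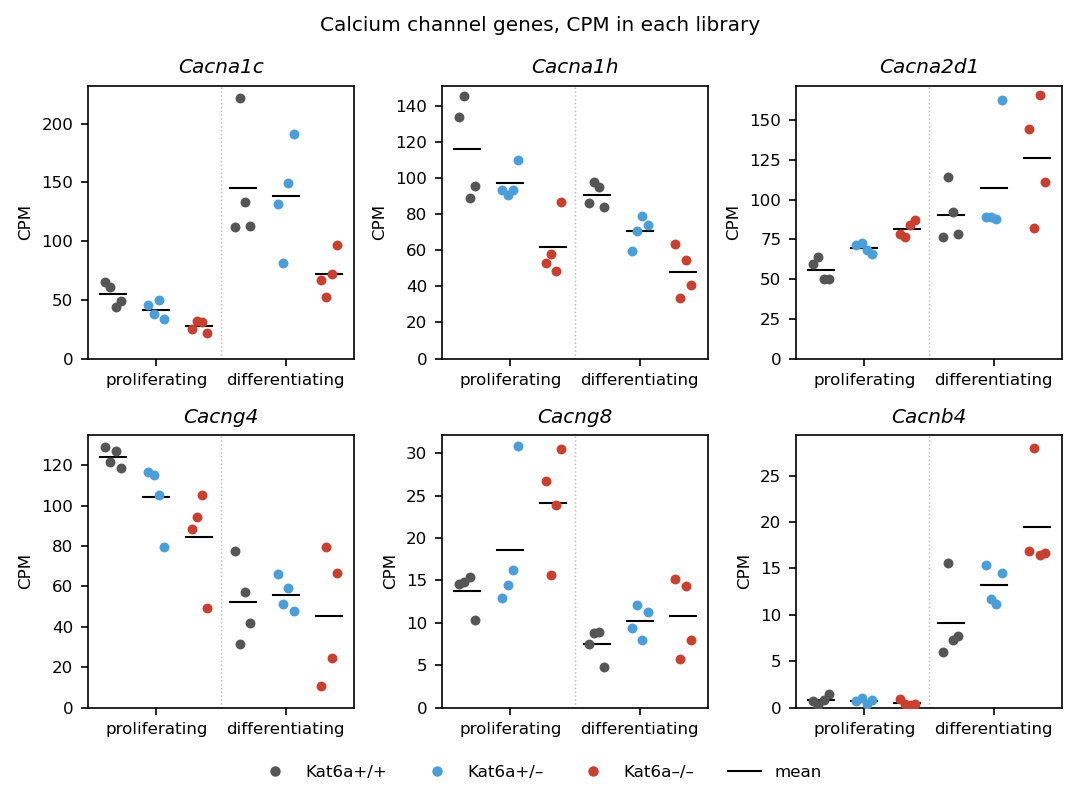
CPM (y axis, linear, from 0) of 6 calcium channel genes in each library, by genotype and condition. Points are libraries, 4 per group, and bars are group means. The pores Cacna1c and Cacna1h were lower in Kat6a–/– than in Kat6a+/+ NSPCs in both conditions, Cacna2d1 was ordered by genotype in proliferating NSPCs, and Cacnb4 was higher in differentiating NSPCs.

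Across the 2 conditions, 60 channel genes were tested in both, of which 26 were called in proliferating and 34 in differentiating NSPCs. Of these, 18 were called in both (30.0%, against 18.2% of the 12122 genes tested in both): 8 were higher in both (Cacna2d1, Cacng8, Kcnc4, Kcnma1, Scn2a, Scn3b and Scn7a among them), 8 were lower in both (Cacna1c, Cacna1h, Cacng4, Kcna3, Kcnab3, Kcnc2, Kcnk10 and Scn8a) and 2 went in opposite directions (Kcnj4 and Kcnmb4). Over all genes these shares were 6.68%, 6.01% and 5.52%. The libraries of the conditions are different, although 6 embryo labels occur in both. The effect of the Kat6a–/– genotype differed between the conditions by the interaction test in 9 of 86 channel genes (10.5%), against 13.9% of all genes tested (6.36% higher, 7.58% lower). It was more positive in differentiating NSPCs for Kcnf1 (2.88 ± 0.89, FDR = 0.0343), Kcnip1 (2.80 ± 0.86, FDR = 0.0336) and Kcnj4 (1.98 ± 0.56, FDR = 0.0218), and more negative for Kcna4 (-3.68 ± 1.19, FDR = 0.0415), Kcnj13 (-2.81 ± 0.81, FDR = 0.0248), Kcnmb4, Kcnip3, Kcng1 (-1.23 ± 0.38, FDR = 0.0342) and Cacna2d2. Kcna4 and Kcnj13 were below the filter in proliferating NSPCs and entered this fit through their differentiating levels. Proliferating Kat6a+/+ libraries had 0 to 0.250 CPM of Kcna4 and 0 to 0.355 CPM of Kcnj13. Kat6a–/– libraries had 0.216 to 1.57 and 0.127 to 0.687 CPM, so these 2 differences rest on few reads. Only Kcnmb4 and Kcnip3 were called in each alternative fit. Leaving out 1 of the 24 libraries at a time gave 3 calls (without proliferating Kat6a–/– replicate 1, 10.7% of all genes) to 19 calls (without differentiating Kat6a–/– replicate 2, 24.02%).

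**Figure D5:**
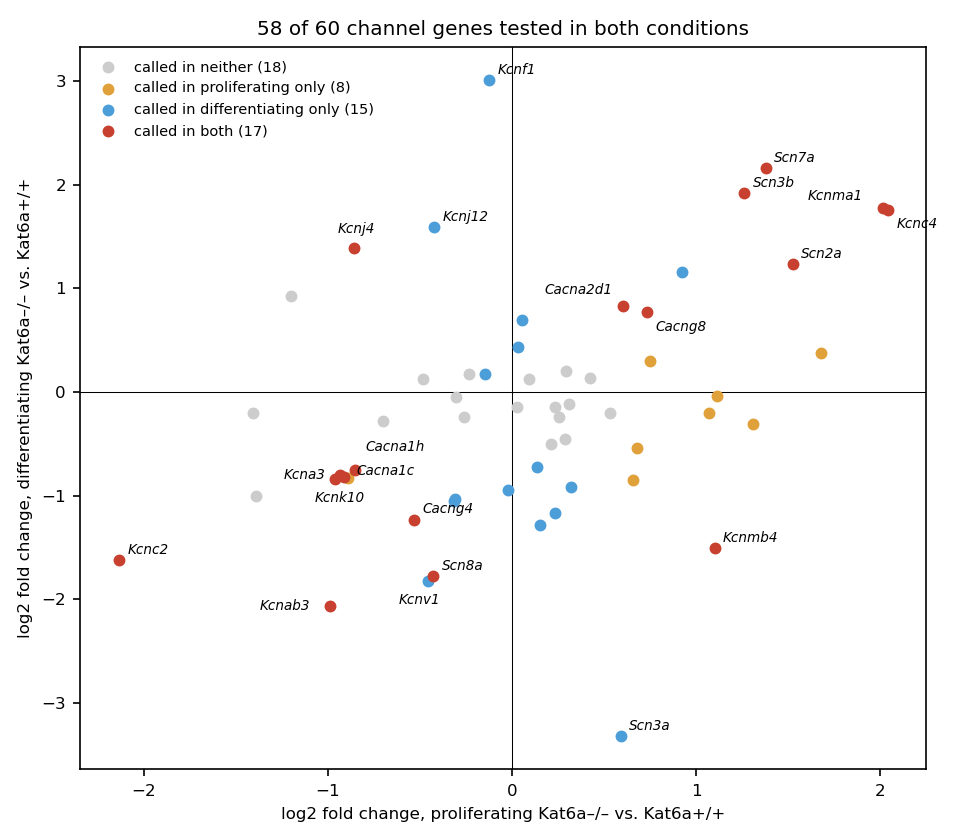
Log2 fold change of Kat6a–/– vs. Kat6a+/+ NSPCs in proliferating (x axis) and differentiating (y axis) conditions for 58 of the 60 channel genes tested in both, with 4 libraries per group. Points are genes, coloured by where they were called (FDR under 0.05). Of the 17 plotted that were called in both, 15 lie in the quadrants of equal sign, and Kcnj4 and Kcnmb4 lie in those of opposite sign.

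In Kat6a+/– vs. Kat6a+/+ NSPCs no channel gene was called by limma, edgeR or DESeq2 in either condition. At an unadjusted p under 0.05 there were 10 of 61 channel genes in proliferating (16.4%, against 7.43% of all genes) and 12 of 80 in differentiating NSPCs (15.0%, against 14.4%). The smallest p in proliferating NSPCs belonged to Cacna2d1 (0.34 ± 0.08, FDR = 0.287), Scn8a (-0.46 ± 0.13, FDR = 0.442) and Kcnt1, a sodium-activated potassium channel (-0.63 ± 0.21, FDR = 0.483). In differentiating NSPCs they belonged to Cacnb4 (0.91 ± 0.22, FDR = 0.163), the inward rectifier Kcnj12 (1.33 ± 0.33, FDR = 0.168) and Cacna1h (-0.43 ± 0.12, FDR = 0.199). The 4 Kat6a+/– libraries lay wholly above Kat6a+/+ for Cacna2d1 and Cacnb2 and wholly below for Cacng4 and Scn8a in proliferating NSPCs (1.90% and 2.64% of all genes). They were wholly below for Cacna1h and Kcnc1 and above for none in differentiating NSPCs (1.35% and 1.43% of all genes). Without differentiating Kat6a+/– replicate 3, 5 of 80 channel genes were called (Cacna1h, Cacnb4, Kcnf1, Kcnj12 and Scn2a), where 2.62% of all genes were.

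Kat6a–/– vs. Kat6a+/– NSPCs differed in 17 of 61 channel genes in proliferating (12 higher, 5 lower). Of all genes 14.8% were called there, 8.47% higher and 6.30% lower. They differed in 31 of 80 in differentiating NSPCs (14 higher, 17 lower), against 37.5% of all genes (19.1% higher, 18.5% lower). Kcnmb4 was called in both (0.75 ± 0.12, FDR = 0.00211 and -1.39 ± 0.17, FDR = 1.46e-04). Kcnj16 (0.57 ± 0.12, FDR = 0.00834), Kcnip3 (0.94 ± 0.19, FDR = 0.00767) and Kcnc4 (1.67 ± 0.29, FDR = 0.00292) were higher in proliferating NSPCs in each alternative fit. The counts fell to 9 without proliferating Kat6a–/– replicate 4 and to 1, Kcnmb4, without differentiating Kat6a–/– replicate 1 or 3, and were 9 and 6 with edgeR.

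Proteins that anchor or regulate channels were examined as a list of 24 genes. In proliferating NSPCs, 7 of 18 tested rose (Ank2, Ank3, Fgf12, Fgf14, Nalcn, Unc79 and Unc80) and 1 fell (Fgf13). In differentiating NSPCs 5 of 18 rose (Ank3, Fgf12, Hcn2, Nalcn and Nfasc) and 3 fell (Dpp6, Fgf13 and Hcn3). Ank3, the ankyrin that holds sodium channels at the axon initial segment, changed by 2.51 ± 0.56, FDR = 0.00602 in proliferating and 1.38 ± 0.50, FDR = 0.0331 in differentiating NSPCs. Of the intracellular fibroblast growth factors, which bind sodium channel pores, Fgf12 rose (0.80 ± 0.22, FDR = 0.0156 and 1.74 ± 0.20, FDR = 3.18e-05) and Fgf13 fell (-2.91 ± 0.32, FDR = 5.69e-05 and -2.51 ± 0.53, FDR = 0.00181). Rest, which encodes a repressor of neuronal genes with known sites in sodium channel genes, was at 0.07 ± 0.09, FDR = 0.595 in proliferating and 0.46 ± 0.11, FDR = 0.00311 in differentiating NSPCs. Its differentiating levels were 47.1 ± 8.43 CPM in Kat6a+/+ and 58.1 ± 12.1 CPM in Kat6a–/– libraries (SD, n = 4), close within their spread. Fits without quality weights or with 1 library left out are not given for Rest or this list. Any part of Rest in the channel results was not tested.

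Promoter sequence was described for the 98 channel genes with an entry in the RefSeq promoter table (GRCm38.p6), as the number of CG dinucleotides in the 250 bases before the start site, taking the start with the most CG. The median was 10 in channel genes and 11 in 16852 protein-coding genes, and 53.1% and 54.7% of them held 10 or more. Downregulated genes had a median of 30.5 CG in proliferating (6 of 10 genes matched, 5 to 48) and 19.5 in differentiating NSPCs (14 of 23 matched, 3 to 48). Upregulated genes had 12 (15 of 17, 0 to 43) and 10.5 (14 of 21, 0 to 37), and genes not called 14 in both. These ranges overlap, and the 36 matched channel genes that passed neither filter had a median of 8. Medians over all upregulated, downregulated or tested genes were not computed, so the values by direction are not a result about channel genes in particular. Of 97 matched starts with a GENCODE gene of the same symbol, 74 lay within 100 bases of an annotated transcript start and 31 within 100 bases of the start of the gene, and 30 lay more than 1000 bases inside it, so some of these windows are internal to the gene. Single genes went either way, with Cacna2d1 (36 CG) higher and Kcnc2 (5 CG) lower in proliferating NSPCs. As examples of a CG-rich and a CG-poor stretch, the 250 bases are given 5′ to 3′ with CG in capitals for 2 genes. The RefSeq and GENCODE gene starts of both lie within 7 bases. They are Kcna3, lower in proliferating NSPCs (chr3:106943228-106943477, plus strand in GRCm39, 31 CG), and Kcnf1, higher in differentiating NSPCs (chr12:17226890-17227139, minus strand, 1 CG). Neither stretch overlaps an annotated exon, and each matched GRCm39 at a single place.
Kcna3: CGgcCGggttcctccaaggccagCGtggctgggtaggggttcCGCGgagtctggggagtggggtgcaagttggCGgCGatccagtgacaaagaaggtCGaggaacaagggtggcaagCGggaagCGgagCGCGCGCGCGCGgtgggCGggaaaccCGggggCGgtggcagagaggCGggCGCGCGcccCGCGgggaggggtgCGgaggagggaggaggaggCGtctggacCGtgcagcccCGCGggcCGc
Kcnf1: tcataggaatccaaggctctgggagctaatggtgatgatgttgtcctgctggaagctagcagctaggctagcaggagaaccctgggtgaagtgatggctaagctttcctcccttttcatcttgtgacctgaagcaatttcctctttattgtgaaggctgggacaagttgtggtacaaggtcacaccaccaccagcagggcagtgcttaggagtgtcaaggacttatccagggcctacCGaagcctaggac

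Markers of the cell types in the cultures also moved, and in bulk RNA fewer cells of a type and less RNA per cell cannot be told apart. Summed astrocyte markers (10 genes) ranged from 1482 to 1726 CPM in proliferating Kat6a+/+, 1880 to 2506 in Kat6a+/– and 2605 to 3975 CPM in Kat6a–/– libraries. In proliferating Kat6a–/– NSPCs 6 of 8 tested astrocyte markers rose, beside the rises of Kcnj10 and Kcnj16. Most of the proliferating sums was Slc1a3 (means 642 CPM in Kat6a+/+ and 1299 in Kat6a–/–) and Sparcl1 (767 and 1383 CPM). Gfap was low, at means of 0.246 and 3.16 CPM. Aldh1l1 went the other way, at means of 15.9 and 4.48 CPM, and was not called. In differentiating NSPCs the astrocyte sums ranged from 3039 to 4091 in Kat6a+/+ and 2612 to 9420 CPM in Kat6a–/– libraries (1 of 9 higher, 3 lower). Of the lower markers, Aqp4 had a fitted fold change (-1.61 ± 0.62, FDR = 0.0433) that ran against its means of 115 ± 31.6 CPM in Kat6a+/+ and 287 ± 380 CPM in Kat6a–/– libraries (SD, n = 4), under unequal quality weights. Neuronal markers (12 genes) summed to 1463 to 1636 and 1565 to 1697 CPM in proliferating Kat6a+/+ and Kat6a–/– libraries (1 of 10 higher, 3 lower) and to 584 to 770 and 526 to 905 CPM in differentiating libraries (2 higher, 5 lower). Most of the differentiating sums was Map2 (means 462 and 527 CPM). Gap43 and Stmn2 were higher there. Dcx (means 38.8 and 4.49 CPM), Elavl3, Elavl4, Snap25 and Tubb3 were lower. The paper counted fewer ßIII-tubulin positive cells in differentiating Kat6a–/– cultures. It reads those RNA results as a mix of cell composition and direct effects. Stem and progenitor markers (7 genes) summed to 6968 to 7825 CPM in proliferating Kat6a+/+ and 5014 to 7021 CPM in Kat6a–/– libraries (1 higher, 3 lower). They summed to 5842 to 7449 and 8073 to 11639 CPM in differentiating libraries (2 higher, 3 lower). Most of these sums was Vim, at a mean of 4633 CPM in Kat6a+/+ and 7378 CPM in Kat6a–/– libraries. Nes and Vim were higher, and Fabp7, Hes5 and Sox2 were lower. Sox2 had means of 453 CPM in differentiating Kat6a+/+, 427 in Kat6a+/– and 319 CPM in Kat6a–/– libraries. Oligodendrocyte lineage markers (8 genes) were lower in differentiating Kat6a–/– NSPCs (690 to 1216 CPM against 1185 to 1402, 1 of 6 higher and 4 lower) and summed to 2260 to 2698 and 2523 to 2951 CPM in proliferating Kat6a+/+ and Kat6a–/– libraries. Mesenchymal markers were at 1.75 to 4.91 CPM in all proliferating Kat6a+/+ and Kat6a–/– libraries and at 202 to 620 and 123 to 848 CPM in differentiating libraries (3 of 5 higher). Endothelial markers stayed at or under 80.2 CPM (1 gene tested in differentiating NSPCs, Kdr, was lower). Microglial markers summed to 1.24 to 1.39 CPM in proliferating Kat6a+/+ and 6.28 to 8.23 CPM in Kat6a–/– libraries (P2ry12, the 1 gene tested, was higher) with Cx3cr1 at 0 in both. Skeletal muscle markers stayed at or under 5.79 CPM. The part of these markers in the channel results was not tested.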

How the data were processed

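RNA sequencing libraries (TruSeq Stranded mRNA, NextSeq2000) from 24 NSPC cultures were analysed from the deposited raw counts per gene, which the authors made by aligning reads to mm39 with Rsubread and counting with featureCounts over strict RefSeq mm39 genes. Versions and the strand setting are not given in the sources used here. Groups, replicate numbers and litters came from the labels.

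Protein-coding genes passing edgeR's filterByExpr were kept, Xist and Y-specific genes were dropped, and TMM factors were used. Following the study's methods, proliferating NSPCs were fitted with limma-voom and litter as a random block, and differentiating NSPCs with limma-trend on log2 CPM (prior count 2) and library quality weights, each over its 12 libraries and 3 genotypes. These fits did not return the study's own counts. For differentiating Kat6a–/– vs. Kat6a+/+ NSPCs, the paper reports clearly fewer changed genes than the 7258 of 13339 called here. For proliferating NSPCs it reports slightly more than the 3686 of 12276 called here. The paper kept fewer genes in both conditions, and the reason for the gap was not tested. The contrast of conditions and the interaction came from limma-voom over 24 libraries. Adjusted p-values (FDR) are Benjamini-Hochberg over all genes tested. limma 3.58.1, edgeR 4.0.16 and DESeq2 1.42.0 were used in R 4.3.3, and the fits were tested on simulated data. Fits that left out 1 of 24 libraries kept the litter correlation of the full fit. Positions are from GENCODE vM39.

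Members and lists were chosen with earlier results of these data known. Genes named were a panel over the families, for each genotype effect the 6 largest rises and falls that were called with no overlap and an average log2 CPM above 0, the 3 smallest p in Kat6a+/–, the 3 largest called interactions and condition effects each way with an average log2 CPM above 0, and the 5 highest RPKM. Other members named, and Rest, were chosen after their values were seen. Some channel and other genes are not reported here. The replicates are separate embryos by their labels.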

Additional observations from a re-analysis of the deposited data

Results flagged for a closer look

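In 54 tests of groups of 4 libraries for a sample far from the others by Dixon's 95% criterion, 5 were past it, where chance gives about 1 in 20. The summed level of the channel genes was 2307 CPM in proliferating Kat6a+/– replicate 4, against 1811 to 1867 CPM in the other 3 libraries, and 1986 CPM in differentiating Kat6a+/– replicate 2, against 2246 to 2286 CPM. Kcnc4 was at 1.24 CPM in proliferating Kat6a+/+ replicate 2, against 2.11 to 2.28 CPM in the rest of its group. Kcna3 was at 3.73 CPM in proliferating Kat6a–/– replicate 4, against 7.69 to 8.42 CPM. Cacnb4 was at 28.0 CPM in differentiating Kat6a–/– replicate 2, against 16.4 to 16.9 CPM.

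The effect of the Kat6a–/– genotype differed between differentiating and proliferating NSPCs by the limma interaction test in 9 channel genes. The differences, on the log2 scale and as differentiating minus proliferating, were -2.41 for Kcnmb4 (FDR = 6.91e-06), -1.27 for Kcnip3 (FDR = 0.0112), 1.98 for Kcnj4 (FDR = 0.0218), -2.81 for Kcnj13 (FDR = 0.0248) and -1.19 for Cacna2d2 (FDR = 0.0284). They were 2.80 for Kcnip1 (FDR = 0.0336), -1.23 for Kcng1 (FDR = 0.0342), 2.88 for Kcnf1 (FDR = 0.0343) and -3.68 for Kcna4 (FDR = 0.0415). Kcnj13 and Kcna4 were below the filter on low counts in proliferating NSPCs, so their differences rest on few reads.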

How the results depend on the processing

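Channel genes called between Kat6a–/– and Kat6a+/+ NSPCs numbered 27 in proliferating NSPCs and 16 with litter as a fixed term, 15 of them among the 27, and 19 to 29 when 1 library was left out. In differentiating NSPCs they numbered 44, but 20 with edgeR, 23 with DESeq2, 20 without quality weights, 19 with limma-voom and a litter block, 12 with litter as a fixed term, and 5 to 62 when 1 library was left out. With library totals as the scale, 18 were higher and 35 lower in differentiating NSPCs, in place of 21 and 23. That scale lowers the Kat6a–/– values of every gene against Kat6a+/+, channel gene or not. TMM factors over the 24 libraries were 0.916 to 0.986 in differentiating Kat6a–/– and 1.01 to 1.04 in differentiating Kat6a+/+ libraries. Between Kat6a–/– and Kat6a+/– NSPCs, the 17 calls in proliferating NSPCs became 9 with edgeR and 10 with no litter term (9 to 18 with 1 library left out). The 31 in differentiating NSPCs became 6 with edgeR, 15 with DESeq2, 18 with no filter on low counts, 7 without quality weights, 4 with limma-voom and a litter block and 2 with litter as a fixed term (1 to 45 with 1 library left out). The count for Kat6a+/– vs. Kat6a+/+ in differentiating NSPCs was 0 to 5 with 1 library left out. The 9 interaction calls became 20 with DESeq2, 14 with library totals and 3 to 19 with 1 library left out. The cause of these changes was not tested. Shares over all genes are given above for the fit without quality weights and for several fits that left out 1 library. For the other fits in this section, the replicate block included, those shares are not given. Their counts are therefore not a result about channel genes in particular.

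With the replicate number as a block, 28 and 45 genes were called between Kat6a–/– and Kat6a+/+ in proliferating and differentiating NSPCs, 14 and 22 between Kat6a–/– and Kat6a+/–, 0 in Kat6a+/– vs. Kat6a+/+ in either condition, 66 between conditions and 6 for the interaction. Deviations of 24 same-numbered pairs correlated from -0.468 to 0.481, so the numbers do not pair the libraries.

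Direction changed for genes that were not called. In differentiating NSPCs, Kcna2 was 0.55 with edgeR, 0.56 with DESeq2, 0.22 without quality weights and 0.32 with limma-voom (-0.30 to 0.78 with 1 library left out), and Kcnn2 was 0.36, 0.37, 0.18 and 0.24 in the same order (-0.28 to 0.53). Kcnh2 was -0.14 without quality weights and -0.23 with limma-voom (-0.53 to 0.25). Cacna1g was -0.49 with edgeR, -0.48 with DESeq2, -0.086 with no filter on low counts, -0.10 with the replicate block, -0.66 without quality weights, -0.79 with limma-voom and -0.14 with litter as a fixed term (-1.10 to 0.29). In proliferating NSPCs, litter as a fixed term gave -0.016 for Kcnd2 and -0.44 for Kcnn2 (-0.22 to 0.21 for Kcnn2 with 1 library left out), and leaving out 1 library gave -0.19 to 0.32 for Kcnq3. Of the other-fit values for named genes, 500 kept direction and side of the threshold, 40 lost and 4 gained a call, and 19 changed direction. At the lowest depth 1 CPM is 7.83 reads, which limits genes near 1 CPM.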
